A study of Mus musculus with 486 samples.

Results

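Bach1 and Bach2 were the transcripts examined, as the 2 BACH-family genes among 47 gene assays read by RT-qPCR in single mouse bone marrow cells. They were taken by gene name and by Ensembl identifier (ENSMUSG00000025612 for Bach1 and ENSMUSG00000040270 for Bach2), not by a filter on their measured values. Earlier results of these data were known when they were chosen. All cells came from bone marrow of wt mice of the strain C57/Bl6 without any treatment named in the labels. Common lymphoid progenitors (CLP), from which several lymphoid lineages arise, formed 3 sorted groups: CLP Ly6d-Gfra2- (87 cells), CLP Ly6d+Gfra2- (86 cells) and CLP Ly6d+Gfra2+ (82 cells). FrA cells formed 3 more: FrA Gfra2- Bst1- (83 cells), FrA Gfra2+ Bst1- (83 cells) and FrA Gfra2+ Bst1+ (42 cells). The FrA fraction includes early stages on the way to B cells, but its groups were not alike in B-lineage transcripts. Pax5 was found in 20.5% of FrA Gfra2- Bst1- cells, fewer than in CLP Ly6d+Gfra2+ (65.9%). In FrA Gfra2+ Bst1- and FrA Gfra2+ Bst1+ it was found in 88.0% and 97.6%. The ages of the mice, the number of mice and any pooling of mice are not stated in the labels.

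Bach1 and Bach2 are transcriptional repressors with a BTB domain and a CNC-type basic leucine zipper. Each pairs with a small Maf protein and binds Maf recognition elements in DNA, and heme binding releases them from DNA. Bach1 is best known as the repressor of the heme oxygenase gene Hmox1, and Bach2 for its roles in B-cell identity, class switching and restraint of plasma cell differentiation. In lymphoid progenitors both are known to restrain myeloid genes, which is why their relation to the myeloid enzyme gene Mpo and to the B-lineage factors Ebf1 and Pax5 is of interest here.

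The sequences just upstream of a single annotated start of each gene are shown because the proteins share a DNA-binding family and a motif. These windows differ in base content, and other starts of either gene were not examined. Each run is the 250 bases before that start, read 5′ to 3′ on the gene's strand, from RefSeq's mouse build GRCm38.p6. Capitals mark GGGCGG, the GC box bound by Sp1-type factors.
Bach1 (chr16:87698704-87698953, + strand): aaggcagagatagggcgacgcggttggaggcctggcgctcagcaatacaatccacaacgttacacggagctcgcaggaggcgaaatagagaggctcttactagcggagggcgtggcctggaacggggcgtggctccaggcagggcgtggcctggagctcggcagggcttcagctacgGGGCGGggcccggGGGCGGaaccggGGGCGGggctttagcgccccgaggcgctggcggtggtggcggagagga
Bach2 (chr4:32417185-32417434, + strand): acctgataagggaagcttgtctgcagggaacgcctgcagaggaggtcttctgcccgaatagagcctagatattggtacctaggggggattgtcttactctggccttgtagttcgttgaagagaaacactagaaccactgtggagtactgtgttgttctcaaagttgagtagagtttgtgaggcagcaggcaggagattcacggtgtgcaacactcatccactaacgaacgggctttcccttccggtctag
The Bach1 run held 3 GC boxes and 25 CpG dinucleotides at a GC content of 69.2%, above 89.6% of 32851 promoters of the same length. The Bach2 run held 0 GC boxes and 7 CpG at 50.4% GC, close to the median of 52.4%. A GC box on either strand was found in 32.7% of all these promoters, so Bach1 has a common feature in several copies. TGANTCA, the core of the Maf recognition element, was searched on both strands and occurred in 6.75% of all promoters. It is in neither of the windows shown, which says only that these letters are not within these bases.

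Every value is a cycle threshold (Ct), the amplification cycle where the signal of an assay appears. Lower Ct values stand for more template, with a doubling per cycle if the PCR is fully efficient. A transcript counted as detected at a Ct of at most 28, and Ct values were compared only within a gene because assays differ in efficiency. The 463 cells lay on 11 plates of 40 to 45 cells, and each plate held cells of 1 group. The mean Ct of 3 reference assays, among them Atp5a1 and Hprt, ran from 11.22 cycles in CLP Ly6d-Gfra2- to 12.62 cycles in FrA Gfra2- Bst1-, and 1 spike-in RNA had plate means from 6.63 to 10.08 cycles, both on plates of CLP Ly6d+Gfra2+. Template per cell and the efficiency of a plate cannot be told apart from the reference Ct. The transcript of the sort marker Gfra2 was found in 90.5% to 93.9% of cells of the groups sorted as Gfra2+ and in 2.30% to 13.3% of the others. That of Bst1 was found in 88.1% of FrA Gfra2+ Bst1+ cells, but also in 34.9% of FrA Gfra2+ Bst1- and 23.2% of CLP Ly6d+Gfra2+ cells. In the Gfra2- groups it was found in 0% to 6.02%. Groups are 1 sample each, so differences between them carry no p-value, and all 95% intervals cover counting error only.

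Bach1 was the more widely detected of the pair, with a Ct in 395 of 463 cells (85.3%, exact 95% interval 81.8 to 88.4). In CLP Ly6d-Gfra2- it was detected in 81 of 87 cells (93.1%, 85.6 to 97.4), at 88.1% on plate 5 and 97.8% on plate 9. In CLP Ly6d+Gfra2- it was detected in 65 of 86 cells (75.6%, 65.1 to 84.2), at 71.4% on plate 6 and 79.5% on plate 7. These are the lowest and highest shares among the 6 groups, and their intervals do not overlap.
CLP Ly6d+Gfra2+ had Bach1 in 76 of 82 cells (92.7%, 84.8 to 97.3), with almost the same share on plate 1 (92.5%) and plate 10 (92.9%). FrA Gfra2- Bst1- had it in 64 of 83 cells (77.1%, 66.6 to 85.6), at 82.9% on plate 2 and 71.4% on plate 8. FrA Gfra2+ Bst1- had it in 72 of 83 cells (86.7%, 77.5 to 93.2), and here the plates stood apart, with 76.2% on plate 3 and 97.6% on plate 4. That gap of 21.4 points is wider than any difference between groups, so this group's share depends on which plate is read. FrA Gfra2+ Bst1+, present on plate 11 alone, had Bach1 in 37 of 42 cells (88.1%, 74.4 to 96.0). In the order of shares, CLP Ly6d-Gfra2-, CLP Ly6d+Gfra2+, FrA Gfra2+ Bst1+ and FrA Gfra2+ Bst1- are neighbours whose intervals overlap, as do those of FrA Gfra2- Bst1- and CLP Ly6d+Gfra2-.

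Bach2 was detected in fewer cells, 339 of 463 (73.2%, 68.9 to 77.2), and its order of groups was another. CLP Ly6d-Gfra2-, where Bach1 was most common, had the lowest Bach2 share, 54 of 87 cells (62.1%, 51.03 to 72.3), at 59.5% on plate 5 and 64.4% on plate 9. CLP Ly6d+Gfra2- followed with 61 of 86 cells (70.9%, 60.1 to 80.2), at 73.8% on plate 6 and 68.2% on plate 7. The other groups lay within a few points of each other.
FrA Gfra2+ Bst1- had Bach2 in 63 of 83 cells (75.9%, 65.3 to 84.6), with 76.2% on plate 3 and 75.6% on plate 4. CLP Ly6d+Gfra2+ had it in 63 of 82 cells (76.8%, 66.2 to 85.4), at 85% on plate 1 and 69.05% on plate 10. FrA Gfra2- Bst1- had it in 65 of 83 cells (78.3%, 67.9 to 86.6), at 85.4% on plate 2 and 71.4% on plate 8. FrA Gfra2+ Bst1+ stood at 33 of 42 cells (78.6%, 63.2 to 89.7). The separate intervals of all 6 groups overlap, which does not show that the shares are equal. Intervals of the differences are given below for 6 pairs of groups.

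**Figure D1:**
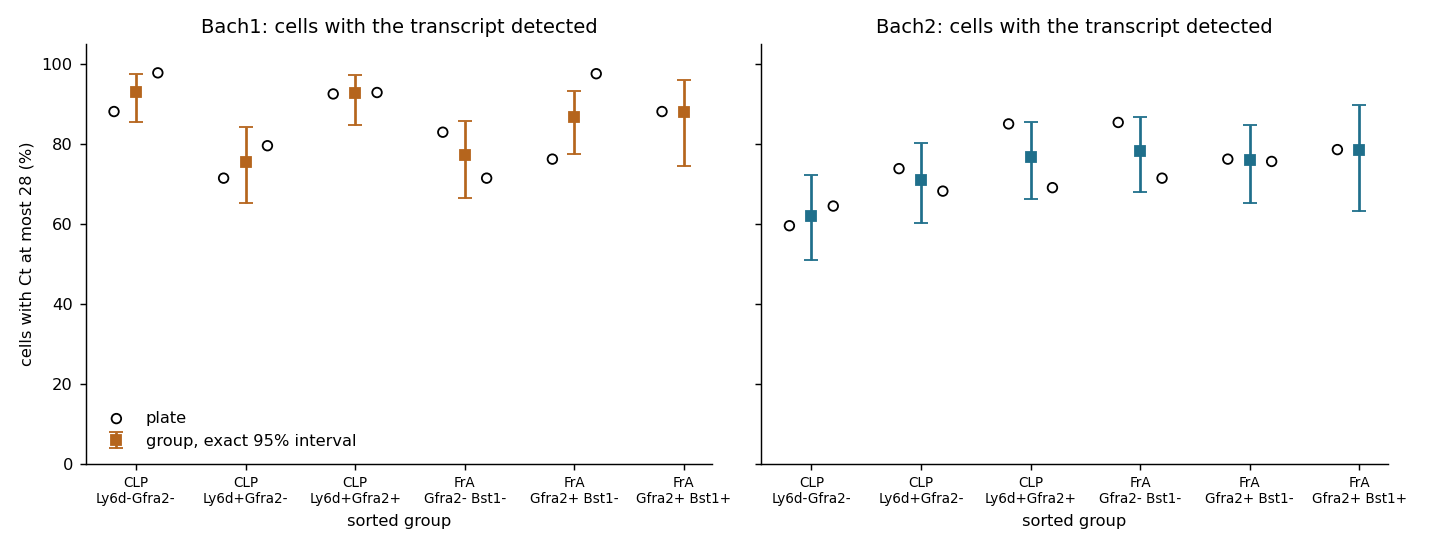
Share of single cells with Bach1 (left) and Bach2 (right) detected, in percent, by sorted group; squares are group shares with exact 95% intervals and open circles are single plates. Bach1 is lowest in CLP Ly6d+Gfra2- (75.6%) and FrA Gfra2- Bst1- (77.1%), and Bach2 is lowest in CLP Ly6d-Gfra2- (62.1%).

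Among cells with a Ct, Bach1 values ran from 12.56 to 24.12 with a median of 15.26, and 6 cells lay above 20. Bach2 values were tighter, from 10.90 to 17.94 with a median of 13.52. The Bach1 mean was 15.10 ± 1.58 (SD, 81 cells) in CLP Ly6d-Gfra2-, 15.39 ± 1.62 (65 cells) in CLP Ly6d+Gfra2- and 15.43 ± 1.35 (76 cells) in CLP Ly6d+Gfra2+. In the last of these, the plate means differed by 1.23 cycles, more than any group means did.
Across FrA, the Bach1 mean was 15.85 ± 1.08 (64 cells) in Gfra2- Bst1-, 15.23 ± 1.73 (72 cells) in Gfra2+ Bst1- and 15.08 ± 0.97 (37 cells) in Gfra2+ Bst1+. The Bach2 means were 13.62 ± 0.98 (54 cells), 13.86 ± 0.96 (61 cells) and 13.53 ± 0.93 (63 cells) in the CLP groups, in the same order as above. They were 13.73 ± 0.96 (65 cells), 13.15 ± 1.24 (63 cells) and 13.08 ± 1.22 (33 cells) in the FrA groups. Every one of these group means lies within 1 SD of the others of its gene.

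**Figure D2:**
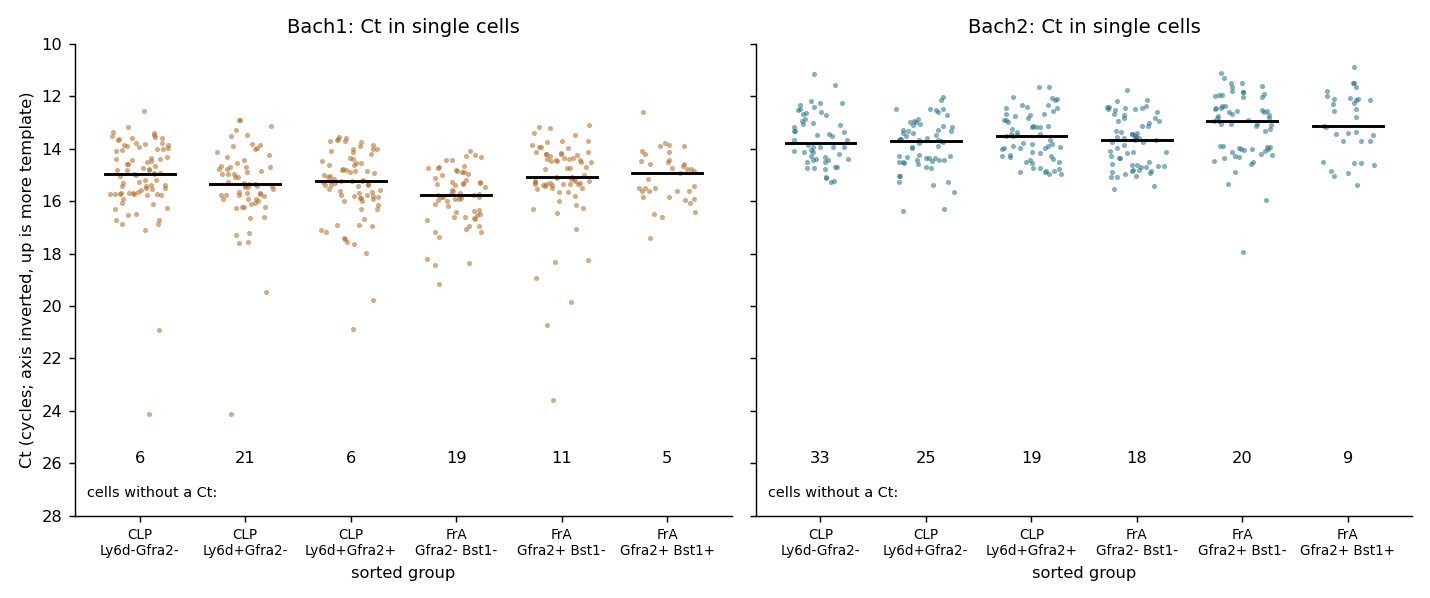
Ct of Bach1 (left) and Bach2 (right) in every detecting single cell by sorted group, in cycles on an inverted axis, with the median as a bar and the number of cells without a Ct below. Bach2 values end at 17.94 and only 6 Bach1 values exceed 20, so few recorded values lie near the limit of 28. Whether cells without a Ct lack the transcript or lost it in processing was not tested.

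Gain of Ly6d in Gfra2- CLP went with fewer Bach1-positive cells, 17.5 points lower in Ly6d+ cells (Newcombe 95% interval of the difference, -28.2 to -6.77), with both plates of one group below both of the other. Bach2 went the other way, 8.86 points higher (-5.16 to 22.4), again with separated plates, but with 0 inside the interval. The rule for a call was a difference of at least 20 points with separated plates, and neither gene met it; 8.89% of 45 gene assays did. Without plate 5 or without plate 7 the Bach1 difference grew to -22.2 or -21.7 points and would have met it, while without plate 6 it was -13.6 points and without plate 9 it was -12.5 points with 0 inside the interval (-24.6 to 2.76). Among the 231 cells in the middle 50% of the reference Ct, Bach1 was still lower by a like amount, at 71.1% against 88.6% (difference -17.5 points, -33.5 to 0.855), while the Bach2 shares were 68.9% and 71.4%, a difference of -2.54 points and thus of the opposite sign.
Gain of Gfra2 in Ly6d+ CLP went with more Bach1-positive cells, 17.1 points higher (6.07 to 27.9) with separated plates, and 18.3 points higher (1.90 to 33.9) at the middle 50% of the reference Ct. Bach2 differed by 5.90 points (-7.41 to 18.8). No call was made for either, against 15.6% of assays, although without plate 7 the Bach1 difference was 21.3 points and past the rule, and without plate 6 it was 13.1 points. Both CLP comparisons use the same CLP Ly6d+Gfra2- cells, so the lower and then higher Bach1 share rests on that 1 group.

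Within FrA, Gfra2+ Bst1- cells had Bach1 9.64 points more often than Gfra2- Bst1- cells (-2.17 to 21.2) with a difference of -2.41 points for Bach2 (-15.1 to 10.4). Neither was called, against 24.4% of assays, but without plate 3 the Bach1 difference was 20.5 points and past the rule, and without plate 4 it was -0.918. Gain of Bst1 among Gfra2+ FrA cells came with differences of 1.35 points for Bach1 (-12.9 to 12.5) and 2.67 points for Bach2 (-13.9 to 16.8), where 6.67% of assays were called.
From CLP Ly6d+Gfra2+ to FrA Gfra2+ Bst1-, the share changed by -5.94 points for Bach1 (-15.7 to 3.67) and -0.926 points for Bach2 (-13.8 to 12.0), with 6.67% of assays called. For the Gfra2- groups the differences were 1.53 points for Bach1 (-11.3 to 14.2) and 7.38 points for Bach2 (-5.77 to 20.1), with 11.1% called. Thus 0 of 6 comparisons gave a detection call for either gene, and the intervals leave room for differences of 10 points and more in each.

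Levels among detecting cells were compared in the same pairs, with a call at 1 cycle or more and separated plate means. Neither gene was called in any of the 6, where 9.09%, 13%, 36.4%, 19.2%, 8% and 13.6% of the assays detected in at least 50% of cells met the rule, in the order above. The largest differences lay in FrA, where Gfra2+ Bst1- cells had more template than Gfra2- Bst1- cells by 0.62 ± 0.24 cycles (SE over cells) for Bach1 and 0.58 ± 0.20 cycles for Bach2, with separated plates. The reference assays moved the same way, and relative to them the differences were -0.24 and -0.18 cycles. In CLP, Ly6d+ cells of the Gfra2- gate differed from Ly6d- cells by -0.24 ± 0.18 cycles for Bach2 as measured. Relative to the reference assays the sign turned, to 0.84 ± 0.21 cycles more Bach2 in Ly6d+ cells, with separated plates. For Bach1 it turned to 0.72 ± 0.29 cycles, with plates that overlap, as plate 7 (3.54) lies above plate 5 (3.38). The mean reference Ct itself was 11.22 cycles in the Ly6d- and 12.24 cycles in the Ly6d+ cells.
Set against the reference assays, Bach2 Ct lay 2.43 cycles above them in CLP Ly6d-Gfra2-, 1.59 in CLP Ly6d+Gfra2-, 1.62 in CLP Ly6d+Gfra2+, 1.22 in FrA Gfra2- Bst1-, 1.39 in FrA Gfra2+ Bst1- and 1.03 in FrA Gfra2+ Bst1+. The mean of each FrA group is thus below that of each CLP group, but plates overlap, since FrA plate 4 (1.57) lies above CLP plates 6 (1.39) and 10 (1.45). Between FrA Gfra2+ Bst1- and CLP Ly6d+Gfra2+ the difference was 0.23 ± 0.23 cycles (SE over cells). For Bach1 the same quantity was 3.92, 3.21 and 3.51 cycles in the CLP groups and 3.30, 3.54 and 3.26 cycles in the FrA groups, which overlap.

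Pooled wells gave a separate reading of this, with 1 well of 10 cells and 1 of 20 cells on each of 10 plates. Both genes had a Ct in all 20 wells. Bach1 in 10-cell wells ran from 10.96 to 13.92 with a median of 12.84 and a mean of 12.57 ± 1.06 (SD, n = 10), and in 20-cell wells from 10.36 to 13.84 with a median of 11.24 and a mean of 11.41 ± 1.03 (n = 10). The difference of 1.16 cycles passed a two-sided permutation test over wells (p = 0.0271, adjusted p = 0.0271 over both genes). Bach2 ran from 9.69 to 12.26 in 10-cell wells (mean 10.97 ± 0.84) and from 8.39 to 11.41 in 20-cell wells (mean 9.90 ± 1.01), a difference of 1.07 cycles (permutation p = 0.0203, adjusted p = 0.0271). For each gene the 20-cell well had the lower Ct on 9 of 10 plates, plate 8 being the exception, and the shift was near the 1 cycle that a doubling of cells gives. Nothing in the labels says that wells or plates came from separate mice, so these p-values measure the spread between wells only. In such pools, fewer expressing cells and less RNA per cell cannot be told apart.

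The pooled wells were then averaged per plate to compare compartments. As measured, Bach2 had a mean Ct of 10.03 ± 1.03 (SD) on the 4 FrA plates and 10.71 ± 0.71 on the 6 CLP plates, a difference of 0.68 cycles (exact permutation p = 0.257, adjusted p = 0.371 over 4 comparisons). By Gfra2, Bach2 had a mean Ct of 9.70 ± 0.84 on 4 Gfra2+ plates and 10.92 ± 0.48 on 6 Gfra2- plates (exact permutation p = 0.0286, adjusted p = 0.114), and the reference assays also differed, by 0.60 cycles in the same direction. Bach1 did not pass either test, with 12.33 ± 1.18 on FrA against 11.76 ± 0.69 on CLP plates (exact permutation adjusted p = 0.371), and a Gfra2 difference of 0.66 cycles (exact permutation adjusted p = 0.371). On the Ct scale, then, no contrast held after adjustment.
Relative to the reference assays of the same wells, Bach2 did separate the compartments. On the FrA plates it lay 1.27 and 1.56 cycles above the references for Gfra2- Bst1- (plates 2 and 8), and 1.20 and 1.45 cycles for Gfra2+ Bst1- (plates 3 and 4). On the CLP plates it lay 2.42 and 3.32 cycles above for Ly6d-Gfra2- (plates 5 and 9), 2.08 and 2.67 for Ly6d+Gfra2- (plates 6 and 7), and 1.79 and 1.99 for Ly6d+Gfra2+ (plates 1 and 10). Every FrA plate was below every CLP plate, within the Gfra2+ plates and within the Gfra2- plates alike.
The means were 1.37 ± 0.16 cycles (SD, n = 4 plates) and 2.38 ± 0.56 cycles (n = 6 plates). Bach2 was thus 1.01 cycles higher in FrA per reference template (exact permutation p = 0.00952, the smallest that 4 against 6 plates can give, adjusted p = 0.0381). That adjustment covers only the 4 comparisons on this scale. The comparisons on the Ct scale, made before, are not counted in it, and no adjustment over both scales was made. Part of that difference lies in the references, whose mean Ct was 8.65 cycles on FrA and 8.33 cycles on CLP plates. The CLP mean also includes the Ly6d-Gfra2- plates, which were paired with no FrA group in the comparisons above. Assays other than the pair were not compared in this way. This scale was an alternative to the main one, and the plates come as pairs of 2 FrA and 3 CLP sorted groups, so the p measures spread between plates and not between separate samples of a compartment. Taken over those groups, the means ran from 1.33 to 1.42 cycles in FrA and from 1.89 to 2.87 cycles in CLP, and the test could not pass (exact permutation p = 0.2, the smallest that 2 against 3 can give, adjusted p = 0.533). Without any 1 plate the difference was 0.82 to 1.13 cycles and the plates stayed apart. The exact permutation p was then 0.0159 or 0.0238, the smallest those plate numbers allow, but the adjusted p ran from 0.0635 to 0.0952. In 10-cell wells alone the difference was 1.14 cycles (exact permutation adjusted p = 0.114) and in 20-cell wells alone 0.88 cycles (exact permutation adjusted p = 0.152), with overlapping plates in both. For Bach1, FrA plates stood at 3.68 ± 0.35 cycles and CLP plates at 3.43 ± 0.33 cycles on this scale (exact permutation adjusted p = 0.356).
Single cells summed over each plate as template, cells without a Ct included at 0, gave the same order from other wells of the same plates, a sum computed after the pooled values were known and not tested. Summed Bach2 lay 1.25 to 1.75 cycles above the references on 5 FrA plates and 1.88 to 3.25 cycles on 6 CLP plates, without overlap. Summed Bach1 lay at 3.07 to 3.70 and 3.13 to 4.10 cycles, which overlap.

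**Figure D3:**
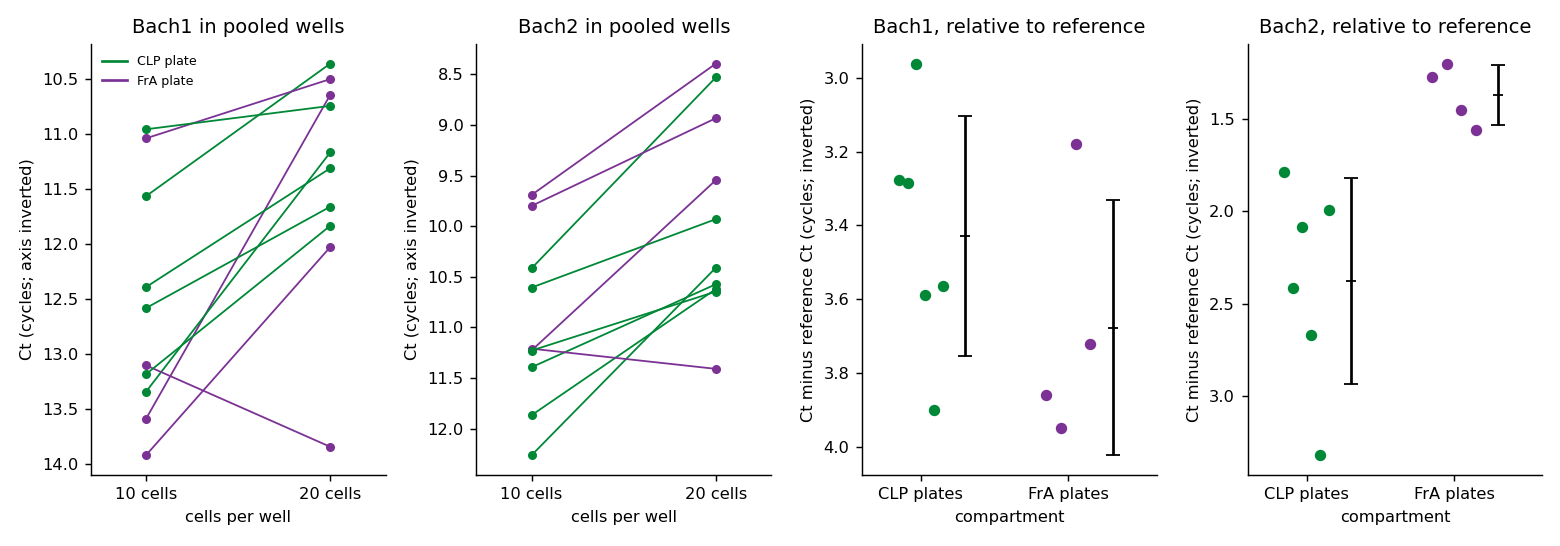
The 2 left panels show the Ct of Bach1 and Bach2, in cycles on an inverted axis, in the 10-cell and 20-cell well of each plate, joined by a line; the 2 right panels show plate means relative to the reference assays of the same wells, with mean and SD. Relative to the references, Bach2 lies at 1.20 to 1.56 cycles on the FrA plates and 1.79 to 3.32 cycles on the CLP plates, while Bach1 overlaps.

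Both transcripts were detected together in 288 of 463 cells (62.2%, 57.6 to 66.6), Bach1 without Bach2 in 107, Bach2 without Bach1 in 51 and neither in 17. The product of the separate shares is 62.5%, so joint detection is at the level that unlinked detection would give. By group, 51 of 87 CLP Ly6d-Gfra2- cells held both (58.6%; product 57.8%), 45 of 86 CLP Ly6d+Gfra2- cells (52.3%; product 53.6%) and 57 of 82 CLP Ly6d+Gfra2+ cells (69.5%; product 71.2%). The FrA groups had both in 51 of 83 Gfra2- Bst1- cells (61.4%; product 60.4%), 55 of 83 Gfra2+ Bst1- cells (66.3%; product 65.8%) and 29 of 42 Gfra2+ Bst1+ cells (69.05%; product 69.2%). In no group did the observed share leave the product by more than 2 points.
CLP Ly6d-Gfra2- was the group most tilted to Bach1, with 30 Bach1-only cells against 3 Bach2-only cells. CLP Ly6d+Gfra2- had 20 against 16, and FrA Gfra2- Bst1- had 13 against 14. Cells with neither transcript numbered 0 of 82 in CLP Ly6d+Gfra2+, which allows a share of up to 3.66% by a limit of 3 cells and 4.40% by the exact 95% interval, and from 1 to 5 elsewhere. Stratified by plate (Mantel-Haenszel), the difference in Bach2 detection between cells with and without Bach1 was -2.01 points (-14.3 to 10.3), lower on 5 and higher on 2 of the 7 plates with enough cells. Among cells with both, Pearson's r of the Ct values ran from -0.03 to 0.36 within groups of 29 to 57 cells, and from 0.19 to 0.56 after subtraction of the shared reference Ct, which itself adds a common term.

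**Figure D4:**
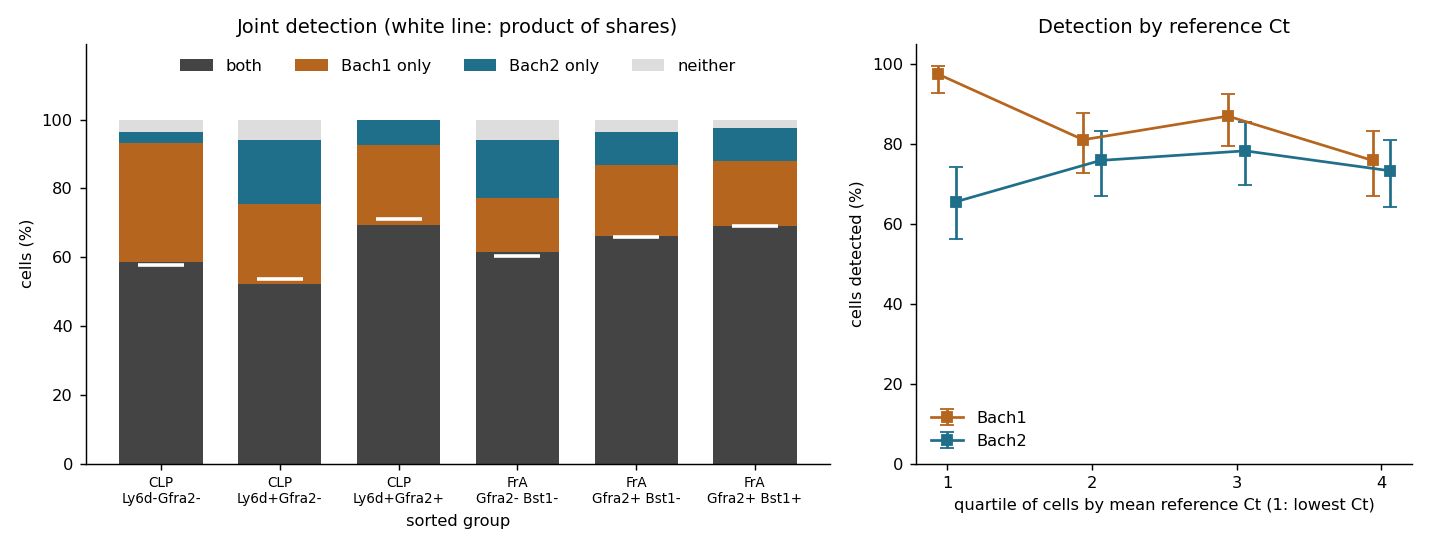
Left, percent of cells of each sorted group with both transcripts, either alone or neither, with the product of the separate shares as a white line; right, percent of cells with Bach1 or Bach2 detected by quartile of the mean reference Ct (quartile 1 has the lowest), with exact 95% intervals. Joint detection stays at the product in each group, and Bach1 falls from 97.4% in the first quartile to 75.9% in the last.

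Detection of Bach1 moved with the mean reference Ct. By quartile of it, from the lowest Ct to the highest, Bach1 was detected in 97.4% (92.6 to 99.5), 81.03%, 86.96% and 75.9% (67.04 to 83.3) of cells. Bach2 showed no such fall, with 65.5% (56.1 to 74.1), 75.9%, 78.3% and 73.3% (64.3 to 81.1). On 9 of 11 plates the cells with Bach1 had the lower mean reference Ct, by a median of 0.251 cycles, while for Bach2 this held on 6 of 11 plates. CLP Ly6d-Gfra2- had the lowest reference Ct and the highest Bach1 share, and the part of the reference Ct in that share was not tested beyond the values at the middle 50% of the reference Ct given above.

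Ebf1, the factor that specifies the B lineage, was the partner with which Bach1 detection differed. Pooled over the 6 plates that held at least 5 cells with and 5 without Ebf1, Bach1 was detected 13.6 points more often in cells with Ebf1 (3.72 to 23.5), higher on 5 plates and lower on 1. In CLP Ly6d+Gfra2- the shares were 51 of 63 cells with Ebf1 (80.95%) and 14 of 23 without (60.9%), and in FrA Gfra2- Bst1- they were 39 of 45 (86.7%) and 25 of 38 (65.8%). In CLP Ly6d-Gfra2-, where Bach1 was near its ceiling, they were 27 of 29 and 54 of 58, both 93.1%. Among 26 assays with room to vary, Bach1 included, the median difference with Ebf1 was 2.48 points and 10 had intervals wholly above 0. At the middle 50% of the reference Ct the Bach1 value was 15.3 points with 0 inside its interval (-1.62 to 32.3).
Bach2 showed no common direction with Ebf1, at -3.91 points (-14.4 to 6.62) with 3 plates higher and 3 lower. The groups differed in sign. In CLP Ly6d-Gfra2-, Bach2 was detected in 22 of 29 cells with Ebf1 (75.9%) and 32 of 58 without (55.2%), higher on both plates. In CLP Ly6d+Gfra2- it was detected in 40 of 63 with (63.5%) and 21 of 23 without (91.3%), lower on both plates. The difference was 20.7 points (-0.962 to 38.1) in CLP Ly6d-Gfra2- and -27.8 points (-41.7 to -6.74) in CLP Ly6d+Gfra2-. FrA Gfra2- Bst1- had 34 of 45 (75.6%) and 31 of 38 (81.6%), with plates of opposite sign. The difference between the CLP groups was not tested, since each is 1 sample.

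Mpo encodes the myeloperoxidase of granulocyte and monocyte precursors. The difference in Bach2 detection between cells with and without Mpo was -5.01 points (-15.0 to 4.96), lower on 6 of 9 plates. The widest gap lay in CLP Ly6d+Gfra2-, at 29 of 48 cells with Mpo (60.4%) against 32 of 38 without (84.2%), a difference of -23.8 points (-40.2 to -4.51). In CLP Ly6d-Gfra2- as a whole the order was opposite, with 45 of 69 (65.2%) and 9 of 18 (50.0%), a difference of 15.2 points (-8.83 to 38.5). Its plates were of opposite sign, with 25 points on plate 5 and -2.56 points on plate 9. In CLP Ly6d+Gfra2+ the shares were 76.1% and 77.8%. Bach1 was detected 6.18 points more often in cells with Mpo (-1.06 to 13.4), higher on 6 of 9 plates. In FrA few cells had Mpo, from 5 to 9 per group, too few for a comparison by group. FrA plates 2, 4 and 11, with 5, 6 and 5 such cells, still entered the values over 9 plates. On them the differences were 19.4, 2.86 and 13.5 points for Bach1 and 16.7, -10.5 and 1.62 points for Bach2. So over the plates together, presence of Mpo went with no difference beyond counting error in either gene. Within CLP Ly6d+Gfra2- alone, the interval for Bach2 left out 0.

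Pax5, the factor that fixes B-lineage commitment, could be set against both genes on 6 plates. Bach2 was detected 12.8 points more often in cells with Pax5 (-0.664 to 26.3), higher on 4 plates and lower on 2. In CLP Ly6d+Gfra2+, where Pax5 divides the group, Bach2 was in 46 of 54 cells with Pax5 (85.2%) and 17 of 28 without (60.7%), a difference of 24.5 points (4.82 to 44.1) with both plates higher. In FrA Gfra2+ Bst1- the shares were 57 of 73 (78.1%) and 6 of 10 (60.0%), while in FrA Gfra2- Bst1- they were 13 of 17 (76.5%) and 52 of 66 (78.8%). Without plate 2 or without plate 6 the pooled value was 17.6 or 15.8 points, with 0 outside the interval, and without plate 1 it was 7.04 points (-8.39 to 22.5). Bach1 differed by 6.11 points with Pax5 (-2.64 to 14.9), by 10.8 points without plate 8 (3.15 to 18.4), by 3.80 without plate 2 and by 2.33 without plate 6 (-7.41 to 12.1). Over 26 assays the median difference with Pax5 was 4.82 points, and 7 had intervals above 0.

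**Figure D5:**
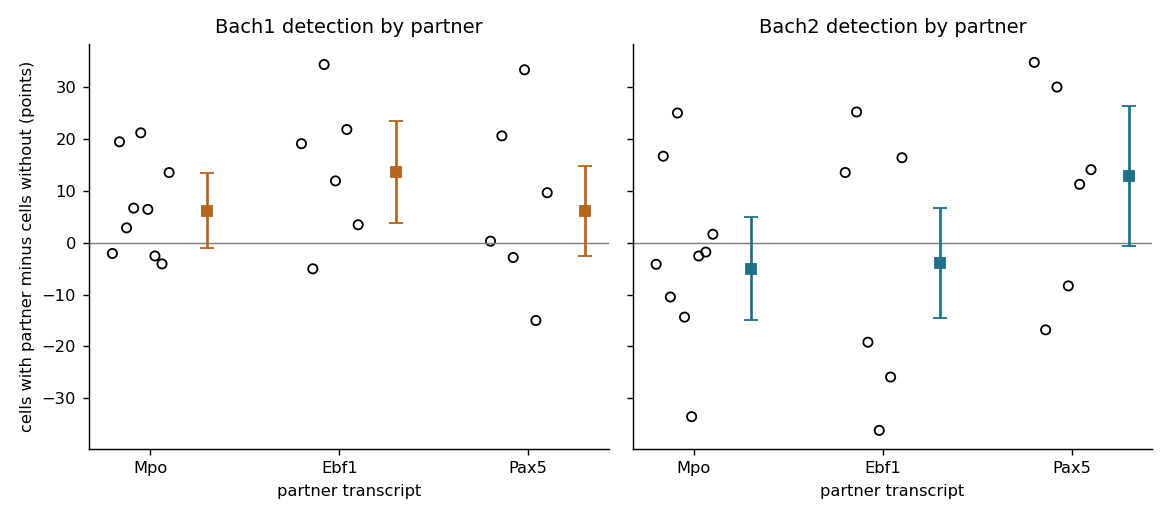
Difference in the share of cells with Bach1 (left) or Bach2 (right) detected between cells with and without Mpo, Ebf1 or Pax5, in percentage points; open circles are single plates and squares the plate-stratified difference with its 95% interval. The Bach1 and Ebf1 pair is the only one whose interval leaves out 0 (13.6 points, 3.72 to 23.5).

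The level of Bach1 and Bach2 in detecting cells differed little with the partners. Averaged over plates, Bach1 had 0.25 cycles more template in cells with Mpo (7 of 9 plates), 0.28 with Ebf1 (4 of 5) and 0.01 with Pax5 (2 of 6). Bach2 had 0.15 cycles more with Mpo (5 of 6 plates), 0.05 with Ebf1 (3 of 6) and 0.29 with Pax5 (2 of 4). Relative to the reference assays the Mpo values turned to -0.09 for Bach1 and -0.18 for Bach2, so the higher template in cells with Mpo was not seen on that scale.

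Over the 11 plates, the assay whose share of detecting cells was most like that of Bach1 was Kit, the stem cell factor receptor (Pearson's r = 0.69), followed by Nfil3, a factor of NK and innate lymphoid cells (0.56), and Rag2, a recombinase subunit (0.50). The least alike of the 20 candidates were the Ets factor Spib (-0.54), the T-cell kinase Lck (-0.50) and the E-protein inhibitor Id3 (-0.30). Bach2 was most like Foxo1 (0.71), a forkhead factor of early B cells, then Ebf1 and Id3 (both 0.57), and least like the pro-apoptotic Bad (-0.80), Mpo (-0.54) and Bcl2 (-0.50). The shares of Bach1 and Bach2 themselves were unrelated over plates (r = -0.08). Cells of a plate share its processing, and the mean reference Ct had an r of -0.73 with the Bach1 share and 0.23 with the Bach2 share, so these are descriptions of 11 plates from 6 groups.
By mean Ct of detecting cells, Bach1 was most like Bax (0.84), Kit and Spi1 (both 0.73), and least like Ikzf1 (0.15), Foxo1 (0.24) and Il7r (0.26), among 16 candidates. Bach2 was most like Foxo1 (0.83), Cd24a (0.81) and Bcl11a (0.79), and least like Ikzf1 (-0.32), Notch1 (-0.30) and the assay named PTPCR (-0.09). Foxo1 was thus the assay closest to Bach2 by both measures. The mean reference Ct had an r of 0.69 with the mean Ct of Bach1 and 0.50 with that of Bach2. Its part in these likenesses was not tested.

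The panel held 0 of 8 listed partners and targets of the Bach proteins, such as Mafk and Hmox1, so these were not analysed here. Of 7 listed granulocyte-monocyte genes it held 3, Mpo, Cebpa and Spi1. Mpo was detected in 79.3%, 55.8% and 56.1% of cells in the CLP groups and in 8.43%, 10.8% and 11.9% in the FrA groups, in the order used above. Cebpa, a myeloid transcription factor, was detected in 12.6%, 3.49% and 3.66% of the CLP groups and in 2.41%, 8.43% and 9.52% of the FrA groups. Spi1, the Ets factor PU.1 of myeloid and B cells, was detected in 95.3% to 100% of the CLP groups, 80.7% of FrA Gfra2- Bst1- and 97.6% of both Gfra2+ FrA groups, so it did not share the low FrA values of Mpo. By the rule above, 1 of the 3 was lower with Ly6d gain and 1 in each CLP-to-FrA comparison, with none higher in any. Of 13 listed B-lineage transcription factors the panel held 8, and 1, 4, 3, 0, 1 and 1 of them were higher over the 6 comparisons in the order above, with 1 lower, for Gfra2 gain in FrA. The shares of all 45 assays called, in either direction, were 8.89%, 15.6%, 24.4%, 6.67%, 6.67% and 11.1% in the same order, so 1 of 8 is near that background. Their median differences were 4.08, 12.8, 4.22, 3.59, 0 and 1.23 points, against medians over all assays between 0 and 1.20 points. Bach1 and Bach2 met no call in comparisons where several of these factors did.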

How the data were processed

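Single cells and pools of 10 or 20 cells were sorted into plates, reverse transcribed and pre-amplified, and TaqMan assays were run on a BioMark HD chip, per the labels' protocols. The authors deposited 1 table of Ct values, treated as a score with no further scaling, in which 40 stands for no Ct. How Ct thresholds were set, and with which software, is not given in the sources used here. Groups came from the labels. Of 464 labelled single cells, 463 with at least 2 of 3 reference assays detected were kept. The 2 wells titled as lacking reverse transcriptase entered no comparison.

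Shares carry exact (Clopper-Pearson) 95% intervals, differences Newcombe intervals, and relations to a partner Mantel-Haenszel differences over plates with at least 5 cells on each side. Pooled wells were compared with permutation tests (100000 resamples for 10 against 10 wells, otherwise exact), adjusted by Benjamini-Hochberg. The detection rule and the Mantel-Haenszel difference were tested on simulated data. The simulated cells for the detection rule held no differences between plates of a group. Level comparisons and permutation tests were not tested in this way. Named genes were the pair, Mpo, Ebf1, Pax5, reference and sort assays, the 3 most and 3 least alike assays over plates, and panel members of 3 lists. The members and lists were chosen with earlier results of these data known. Promoter sequences came from RefSeq (GRCm38.p6), matched by symbol for both genes. Python 3.11.15, pandas 2.3.3 and scipy 1.17.1 were used.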

Additional observations from a re-analysis of the deposited data

Results flagged for a closer look

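Bach1 in the 20-cell wells was flagged because 1 well stood far from the other 9: on plate 8 (FrA Gfra2- Bst1-) its Ct was 13.84, against 10.36 to 12.03 elsewhere. The 10-cell well of the same plate had a lower Ct, 13.10, and the mean reference Ct of the 20-cell well was also the highest of the 10, at 9.97. It was 1 of 16 sets of wells or plates checked in this way, and chance flags about 1 in 20.

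On the same plate, 2 wells are titled as made without reverse transcriptase and described as cells. Both gave signals for the pair: Bach1 had a Ct of 15.11 and Bach2 one of 12.00 at position 36, and Bach1 had a Ct of 15.24 at position 30, where Bach2 had none. These wells had 25 and 26 gene assays detected, and mean reference Ct values of 12.41 and 11.65, within the range of labelled single cells. Whether the title or the description is right was not tested.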

How the results depend on the processing

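Of 407 alternatives over 44 results, 368 kept direction and side of the threshold or stayed within the main interval; the cause of the others was not tested. Limiting cells to the middle 50% of the reference Ct gave 15.3 points for Bach1 with Ebf1 and -18.2 points for Bach1 with Bst1 gain (15 cells left in FrA Gfra2+ Bst1+). A limit of Ct 20 gave 10.9 points for Bach1 with Pax5. Leaving out 1 plate at a time gave, for Bach1, 2.33 to 10.8 points with Pax5, -22.2 to -12.5 for Ly6d gain, 13.1 to 21.3 for Gfra2 gain in CLP, -0.918 to 20.5 for Gfra2 gain in FrA, -16.5 to 4.88 between Gfra2+ compartments, and levels of -0.43 to 0.80 cycles between Gfra2+ compartments and -0.64 to 0.60 for Gfra2 gain in CLP. For Bach2 with Pax5 it gave 7.04 to 17.6 points. Plate 11 could not be left out of its group.

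Relative to the reference assays, levels were -0.24 cycles (Bach1) and -0.18 (Bach2) for Gfra2 gain in FrA, 0.72 and 0.84 for Ly6d gain, and -0.032 for Bach2 with Gfra2 gain in CLP. The 10-cell against 20-cell difference became 0.29 for Bach1 (permutation p = 0.171) and 0.21 for Bach2 (permutation p = 0.545), since subtraction of the references removes input by construction, and with medians it was 1.05 for Bach2 (permutation p = 0.0577). With the plate as a replicate block it stayed at 1.16 and 1.07 cycles (exact sign-flip p = 0.0078125 and 0.00390625), and the block changed no call. The compartment difference of Bach2 relative to the references was 1.01 cycles; the alternatives to it, chosen after seeing the data, were 1.14 cycles in 10-cell wells, 0.88 in 20-cell wells, 0.82 to 1.13 without 1 plate and 1.01 over sorted groups in place of plates (exact permutation adjusted p = 0.533). Depth limits the shares: with 42 to 87 cells per group, an interval spans 11.8 to 26.5 points.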

Other observations

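Among 26 assays, the one whose detection differed most with Bach1 was Gfra1, a co-receptor for GDNF-family ligands, at 25.2 points more often in cells with Bach1 (13.0 to 37.4) and higher on 7 of 7 plates. Spib, an Ets factor, lay at the other end, at -16.4 points (-28.1 to -4.80) and lower on 6 plates with none higher. With Bach2 as the condition the ends were Gfra1, at -12.2 points (-21.1 to -3.22) and lower on 8 of 11 plates, and Bcl2, at 10.5 points (1.63 to 19.4) and higher on 8 of 11. These assays were picked after their values were seen, so they are descriptions.

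Pooled wells held less template than the single cells of their plate would sum to. The Ct lay above that sum by a median of 0.64 cycles for Bach1 and 0.48 for Bach2 in 10-cell wells, and by 0.47 and 0.57 in 20-cell wells. Atp5a1 gave 0.53 and 0.61 cycles and Hprt 0.43 and 0.30, so the pair did not stand out from these reference assays.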
